A study of Mus musculus with 6 samples.

Results

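The receptors for the myeloid colony-stimulating factors and interleukin-3 were followed in mouse bone marrow as 9 genes, chosen by name from the 49315 rows of a table of read counts. They were Csf3r, Csf1r, Flt3, Csf2ra, Il3ra, Csf2rb, Csf2rb2, Ifngr1 and Tgfbr2, and each had a row that passed the filter on low counts, among 16956 genes that did. The KO group held 3 libraries from miR-181a2b2-/- mice (replicates 2, 3 and 4) and the WT group 3 libraries from miR-181a2b2flox/flox mice, in which the locus is floxed and not deleted (replicates 1, 3 and 4). All 6 libraries came from animals that had been fed the HFSC diet and had undergone hindlimb ischemia, an operation that cuts blood flow to a leg. The labels give no age, sex, Cre driver or statement that libraries came from separate animals, so p-values speak only to the spread among these libraries. The series title ties miR-181a/b in marrow to blood formation and to CXCR4, and the question put here is whether marrow without the miR-181a2b2 locus holds other levels of the growth factor receptors of myeloid cells.

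Csf3r encodes the receptor for G-CSF, which drives neutrophil production, and Csf1r the receptor tyrosine kinase for M-CSF and IL-34 on monocytes and macrophages. Flt3 encodes a related receptor kinase of early progenitors and dendritic cell precursors. The receptors for GM-CSF and IL-3 pair a ligand-binding alpha chain, encoded by Csf2ra or Il3ra, with a signalling beta chain. In the mouse that beta chain is the common chain encoded by Csf2rb, which GM-CSF, IL-3 and IL-5 receptors share, or a chain specific to IL-3 encoded by Csf2rb2. Ifngr1 and Tgfbr2 encode the ligand-binding chains of the interferon gamma and TGF-beta receptors, which restrain or redirect the growth of the same cells.

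Total counts lay between 33861440 and 40359093 per library, and the 9 receptors together took 0.204%, 0.234% and 0.223% of counts in the KO libraries, against 0.182%, 0.254% and 0.198% in the WT libraries. Levels are given as CPM, counts scaled to a common library size with TMM factors. Xist, a marker of female cells, was above 1 CPM in KO replicate 2, WT replicate 3 and WT replicate 4. It was not in KO replicates 3 and 4 or in WT replicate 1, so the groups were not balanced for it. A fit with Xist as a covariate is given below. The deleted microRNAs, Mir181a-2 and Mir181b-2 on chromosome 2, had 0 counts in all 6 libraries, and since poly(A) selection captures such short precursors poorly the genotype labels could not be checked from them. KO replicate 4 stood apart, at -61.04 on the first principal component (40.26% of the variance), where the other KO libraries lay at -7.19 and -10.55 and the WT libraries between 23.2 and 28.5. Without it 32 genes were called over all, in place of 417, and results that rest on it are also given without it. This fall was not particular to KO replicate 4, as 33 were called without WT replicate 1 and 37 without WT replicate 4. Marrow markers were abundant, with summed levels of 12 neutrophil markers of 71970, 65580 and 80680 CPM in KO and 43910, 56900 and 45670 CPM in WT. The 2 ranges do not overlap. The extraction text in the labels names white adipose tissue, but the adipocyte genes Plin1, Cidec and Lep were at 0 counts in at least 1 library each and did not pass the filter. The 3 adipocyte genes that passed summed to 32.67, 23.38 and 39.55 CPM in KO and 23.51, 16.29 and 26.34 CPM in WT. These are bulk libraries, in which fewer cells of a type and less RNA per cell cannot be told apart.

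None of the 9 receptors passed the threshold between KO and WT marrow. In edgeR's quasi-likelihood test with Benjamini-Hochberg adjustment over all genes, 0 of 9 were called at an adjusted p under 0.05, where 2.46% of all tested genes were called (417 of 16956; 0.938% higher and 1.52% lower). DESeq2 also called 0 of 9, against 11.4% of the genes it gave an adjusted p (6.0% higher and 5.35% lower), and limma 0 of 9, against 6.23% (2.92% higher and 3.31% lower). At an unadjusted p under 0.05, edgeR gave 3 of 9 receptors, all higher, where 23.9% of all genes reached it (11.7% higher and 12.2% lower). The same 3 genes, Il3ra, Ifngr1 and Csf2ra, were higher in every KO library than in any WT library, where 29.1% of all genes separated the groups (14.4% higher and 14.7% lower). The median log2 fold change (KO minus WT) of the 9 was 0.10, beside -0.01 over all tested genes.

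**Figure D1:**
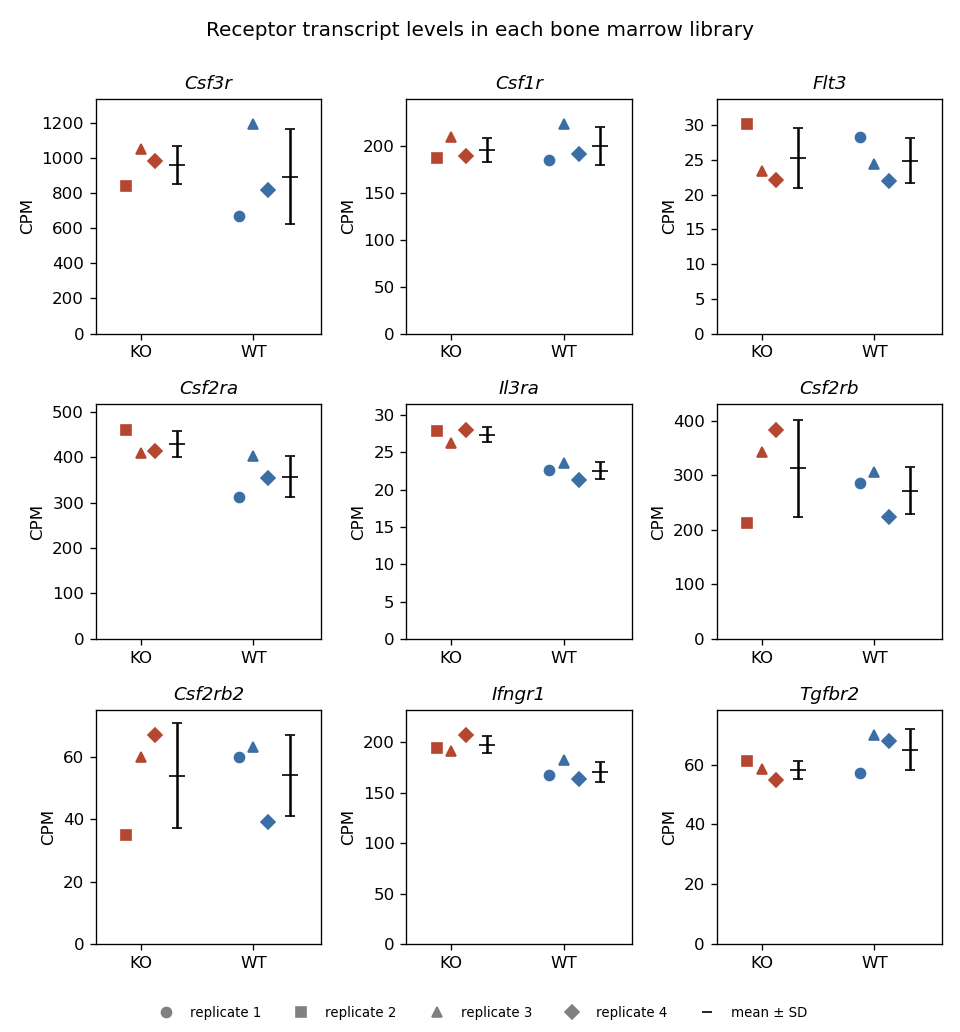
Level of each receptor gene in CPM (vertical axis, from 0) in the KO and WT libraries, one symbol per replicate number, with the mean and SD of 3 libraries beside each group. Il3ra, Csf2ra and Ifngr1 lay higher in each of the 3 KO libraries than in any WT library, and the other 6 genes overlapped between the groups.

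The locus removed in KO mice encodes a copy of each of miR-181a and miR-181b, which lower messenger RNAs that carry a match to the microRNA's seed, and further copies of the family lie elsewhere in the genome. The mature sequences from RefSeq (GRCm38.p6) are shown with the seed, bases 2 to 8, in capitals, because both share it and the receptors were searched for it. They lie at chr2:38852741-38852763 and chr2:38853845-38853868 on the plus strand.
mmu-miR-181a-5p: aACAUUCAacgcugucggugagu
mmu-miR-181b-5p: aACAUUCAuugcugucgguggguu
Of the 9 receptors, 2 held a match of 7 or more bases in the longest 3' UTR annotated by GENCODE M21, 3 held only matches of 6 bases and 4 held none. Over all tested genes with an annotated 3' UTR 23.1% held such a match of 7 or more bases, and 18.3% of those with a UTR of 400 to 2000 bases did. The 2 receptors were Il3ra and Csf2rb2. Il3ra held a match to the whole seed followed by an A (an 8mer, chr14:14355753-14355760, plus strand), and Csf2rb2 a match to the whole seed (a 7mer, chr15:78283099-78283105, minus strand). The bases paired with the seed, and the A, are in capitals.
Il3ra: ggatcaaaggtTGAATGTAatgtcagacat
Csf2rb2: catgtctccctTGAATGTgctaattttgt
The Il3ra match lay in exons of 1 of its 7 annotated transcripts, and counts per gene do not show which transcripts were present. These matches are letters in a sequence and were not shown here to be bound.

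Both alpha chain genes were higher in every KO library than in any WT library, as were 14.4% of all tested genes. Neither passed the threshold. Il3ra (ENSMUSG00000068758, chromosome 14, 14346275 to 14356011, GRCm38) lay at 27.9, 26.2 and 28.1 CPM in KO libraries and at 22.7, 23.6 and 21.3 CPM in WT libraries. Every KO library was above every WT library, and the spread within each group was small. The log2 fold change was 0.28 ± 0.09 (SE, 3 against 3 libraries), with a 95% interval of 1.06 to 1.40 times the WT level, and the gene was not called (edgeR adjusted p = 0.11). The adjusted p was 0.0819 in DESeq2 and 0.0636 in limma, and in the 6 edgeR fits that each left out 1 library it lay between 0.0961 and 0.341. The antisense gene Gm48860 overlaps 46 exonic bases of Il3ra, and no source used here gives the strand setting. IL-3 receptors are abundant on basophils and eosinophils, whose 12 markers summed to 2391, 1757 and 2417 CPM in KO and 975.9, 1884 and 1825 CPM in WT. That sum overlapped between the groups, and 0 of the 12 markers passed the threshold in edgeR (0 higher and 5 lower before adjustment, 2 lower by DESeq2 and 1 lower by limma).

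Csf2ra (ENSMUSG00000059326, chromosome 19, 61223957 to 61228429) lay at 461.1, 409.7 and 414.3 CPM in KO and at 312.7, 403.6 and 355.4 CPM in WT. The lowest KO library stood just above the highest WT library, WT replicate 3. The log2 fold change of 0.26 ± 0.12 (SE) did not pass (edgeR adjusted p = 0.205), and its 95% interval ran from 1.002 to 1.435 times the WT level. It was 0.36 without WT replicate 3 and 0.17 without WT replicate 1, the WT library with the lowest level.

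The beta chains differed more among libraries than between genotypes. Csf2rb (ENSMUSG00000071713, chromosome 15, 78325752 to 78353847) lay at 213.4, 342.4 and 384.2 CPM in KO and at 285.5, 306.3 and 224.3 CPM in WT. Csf2rb2 (ENSMUSG00000071714, chromosome 15, 78282507 to 78305721) lay at 34.96, 59.7 and 66.9 CPM in KO and at 59.7, 63.2 and 39.0 CPM in WT. Both genes were lowest in KO replicate 2 and second lowest in WT replicate 4, and the groups overlapped. The log2 fold changes were 0.20 ± 0.22 for Csf2rb and -0.0014 ± 0.29 for Csf2rb2 (SE, edgeR adjusted p = 0.612 and 0.998). For Csf2rb it was 0.42 without KO replicate 2 (edgeR adjusted p = 0.133), 0.0336 without KO replicate 4 and 0.0816 without WT replicate 4. For Csf2rb2 it was 0.24 without KO replicate 2 (edgeR adjusted p = 0.497), -0.19 without KO replicate 4 and -0.19 without WT replicate 4. The 95% intervals ran from 0.810 to 1.64 and from 0.616 to 1.62 times the WT level, so that changes of such sizes could not be told from 0 at this number of libraries. The 2 libraries with the lowest beta chain levels were also those with the highest summed level of 10 B lineage markers, which was 413.7, 124.2 and 143.0 CPM in KO and 368.0, 316.7 and 512.1 CPM in WT. The part of B lineage RNA in the beta chain levels was not tested.

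The 2 beta chain genes are close copies, and their reads may have been split imperfectly. Their longest transcripts were 90.5% identical over 4687 aligned bases, and 18.4% of the 50-base windows of Csf2rb were found unchanged in Csf2rb2. No source used here says how reads matching both were treated. As counted, Csf2rb2 took 14.1%, 14.9% and 14.8% of the reads of both genes in KO and 17.3%, 17.1% and 14.8% in WT. WT replicate 4 lay within the KO range. The difference was -1.81 percentage points, beside SDs of 0.445 in KO and 1.38 in WT. It was not told from 0 (exact permutation test, two-sided, p = 0.3, Benjamini-Hochberg adjusted over the 4 within-library ratios 0.6). With 3 against 3 libraries this test cannot give a p below 0.1.

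Csf3r was the most abundant of the receptors and varied most among the WT libraries. Csf3r (ENSMUSG00000028859, chromosome 4, 126024550 to 126044440) lay at 841.8, 1053 and 984.2 CPM in KO and at 671.1, 1193 and 817.2 CPM in WT. The KO values lay inside the WT range. Its log2 fold change was 0.10 ± 0.20 (SE, edgeR adjusted p = 0.792), with a 95% interval of 0.783 to 1.47 times the WT level. It was -0.07 without WT replicate 1 and 0.37 without WT replicate 3, so that its sign turned without 1 library.

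Neutrophil markers were set beside Csf3r because neutrophils and their precursors carry most of this receptor. Of the 12 neutrophil markers, 2 rose (S100a8 and Camp), 0 fell and 10 did not pass in edgeR, with a median log2 fold change of 0.51. Of 6 promyelocyte markers 3 rose (Elane, Fcnb and Ms4a3), 0 fell and 3 did not pass, with a median of 0.58. The number called was 0 in both lists without KO replicate 4, without WT replicate 1 and without WT replicate 4, and without WT replicate 3 it was 3 neutrophil and 0 promyelocyte markers. DESeq2 called 10 neutrophil and 6 promyelocyte markers higher, and limma 8 and 5. The share of all genes called higher was 0.938% in edgeR, 6.0% in DESeq2 and 2.92% in limma. On the log2 CPM scale Csf3r stood below the mean of the neutrophil markers by a difference of -1.68, -1.30 and -1.59 in KO and of -1.35, -0.94 and -1.16 in WT. The distance was greater in KO on average, by -0.37, but KO replicate 3 lay above WT replicate 1 (exact permutation test, two-sided, p = 0.2, adjusted 0.6).

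The promoter window of Csf3r is shown because the genes for several C/EBP factors, which act on myeloid promoters together with PU.1, rose in KO marrow while the receptor did not pass. The 250 bases before its RefSeq start (GRCm38.p6, chr4:126024409-126024658, plus strand) carry in capitals a PU.1-type motif, GAGGAAG, and a C/EBP core motif, GCAAT. The gene starts earlier in GENCODE M21, so the last 109 bases of this window, with both motifs, lie inside the gene as annotated there.
Csf3r promoter: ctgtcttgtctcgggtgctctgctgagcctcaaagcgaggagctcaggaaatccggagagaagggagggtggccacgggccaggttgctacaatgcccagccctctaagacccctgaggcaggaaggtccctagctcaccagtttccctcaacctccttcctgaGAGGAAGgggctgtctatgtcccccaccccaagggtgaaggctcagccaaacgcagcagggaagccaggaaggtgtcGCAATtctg
On either strand, GAGGAAG was found in 10.6% and GCAAT in 23.1% of 32851 promoter windows of the same length. Of the 7 receptors with an entry, 4 held GAGGAAG (Csf3r, Csf2ra, Csf2rb2 and Tgfbr2, with a pair of overlapping matches in Csf2ra) and 4 held GCAAT (Csf3r, Csf2rb2, Il3ra and Ifngr1). The motifs do not overlap each other in the sequence shown, and a match is not evidence of binding.

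Transcription factors known from myeloid receptor genes included several that passed. Of 12 measured, 4 rose, 1 fell and 7 did not pass in edgeR, with a median log2 fold change of 0.12. Over all tested genes edgeR called 0.938% higher and 1.52% lower. Cebpe, a factor of late granulocyte development, averaged 226.5 ± 16.7 CPM in KO and 141.4 ± 18.6 CPM in WT (SD, n = 3 each), a log2 fold change of 0.68 (edgeR adjusted p = 0.0273). Cebpa, which commits progenitors to the myeloid fate, had 0.38, Cebpd 0.51 and Gfi1, a repressor needed for neutrophils, 0.56, with edgeR adjusted p between 0.0427 and 0.0432. Klf4, a monocyte factor, fell by 0.61 (edgeR adjusted p = 0.019). Spi1, which encodes PU.1, had 0.45 and did not pass in edgeR (adjusted p = 0.0564), though it did in DESeq2 (adjusted p = 0.00272) and limma (adjusted p = 0.0287). Fli1 had 0.18, Irf8 -0.18 and Runx1 -0.09, and these 3 did not pass in edgeR. DESeq2 and limma each called 5 higher and 1 lower. The 4 calls of higher genes were all lost without KO replicate 4, WT replicate 1, WT replicate 3 or WT replicate 4, and 2 were left without KO replicate 2. Klf4 lost its call without KO replicate 4, WT replicate 1 or WT replicate 4. Neutrophil markers moved with this list as given above, and their part in it was not tested.

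The receptor kinase genes Csf1r and Flt3 did not pass. Csf1r (ENSMUSG00000024621, chromosome 18, 61100598 to 61132149) lay at 186.6, 209.7 and 189.3 CPM in KO and at 185.1, 223.0 and 191.3 CPM in WT. The ranges overlapped almost wholly. Its log2 fold change of -0.03 ± 0.10 (SE) had an edgeR adjusted p of 0.871 and a 95% interval of 0.833 to 1.15 times the WT level. The gene Hmgxb3 on the opposite strand overlaps 873 exonic bases of Csf1r, and reads from that stretch may belong to either. Of the 10 monocyte markers 0 passed in edgeR (1 higher and 1 lower before adjustment, 1 lower by DESeq2 and 0 by limma), with a median of 0.04. Csf1r stood above their mean by 0.53, 0.55 and 0.49 on the log2 CPM scale in KO and by 0.41, 0.50 and 0.59 in WT, a difference of 0.02 (exact permutation test, two-sided, p = 0.8, adjusted 0.8).

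Flt3 (ENSMUSG00000042817, chromosome 5, 147330741 to 147400489) lay at 30.2, 23.5 and 22.1 CPM in KO and at 28.3, 24.4 and 21.9 CPM in WT. KO replicate 2 and WT replicate 1 were the highest of their groups. The log2 fold change of 0.02 ± 0.14 (SE, edgeR adjusted p = 0.947) had a 95% interval of 0.815 to 1.26 times the WT level. Of the 10 dendritic cell markers and the 10 stem and progenitor markers, 0 passed in edgeR in either list. Before adjustment 2 dendritic and 1 progenitor marker were lower, DESeq2 gave 1 lower call in each list, and limma gave 0 dendritic and 1 progenitor marker. The ratio of Csf3r to Csf1r counts, which sets the neutrophil receptor against the monocyte receptor without any scaling of libraries, was 4.51, 5.02 and 5.198 in KO and 3.63, 5.35 and 4.27 in WT. WT replicate 3 had the highest ratio of all, and the difference in log2 ratio of 0.17 was not told from 0 (exact permutation test, two-sided, p = 0.5, adjusted 0.667).

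**Figure D2:**
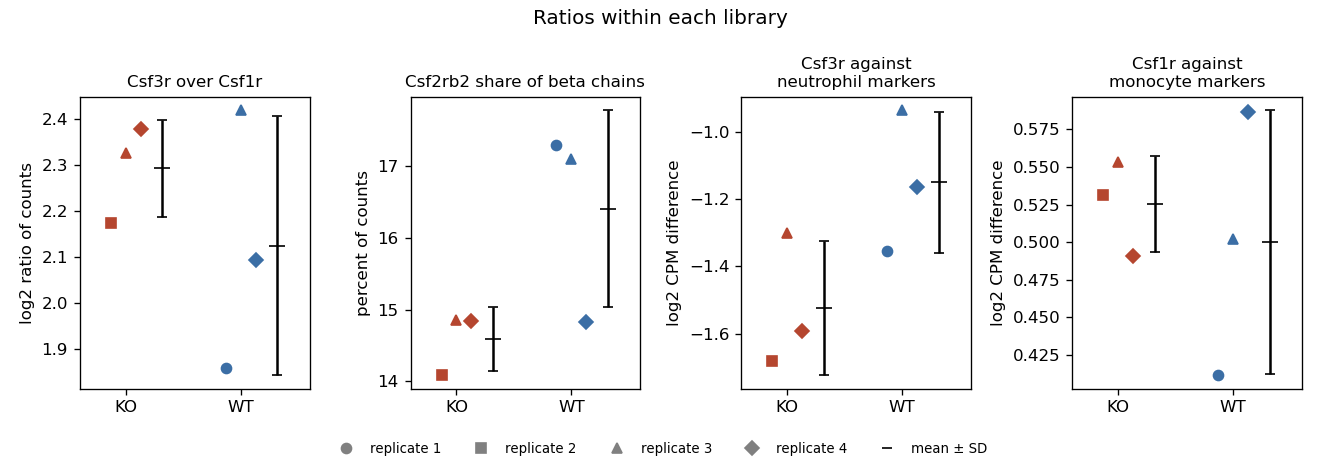
Within-library ratios (vertical axes: log2 ratio of counts, percent of counts, and differences of log2 CPM) in the KO and WT libraries, one symbol per replicate number, with mean and SD of 3 libraries. The groups overlap in all 4 panels, and the Csf2rb2 share was 14.6 ± 0.445% in KO and 16.4 ± 1.38% in WT.

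Ifngr1 (ENSMUSG00000020009, chromosome 10, 19591949 to 19610229) lay at 194.1, 191.9 and 207.5 CPM in KO and at 167.6, 182.4 and 163.6 CPM in WT. All KO libraries were above all WT libraries, as for 14.4% of all tested genes. The log2 fold change of 0.21 ± 0.09 (SE) did not pass (edgeR adjusted p = 0.19), with a 95% interval of 1.01 to 1.33 times the WT level. Its partner chain Ifngr2 showed the same order, at 95.7, 96.4 and 101.8 CPM in KO and 74.6, 88.6 and 83.7 CPM in WT, with a log2 fold change of 0.25 ± 0.09 (SE, edgeR adjusted p = 0.134).

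Tgfbr2 (ENSMUSG00000032440, chromosome 9, 116084293 to 116175360) lay at 61.1, 58.5 and 54.96 CPM in KO and at 57.2, 69.9 and 67.95 CPM in WT. WT replicate 1 lay among the KO values and the other WT libraries above them. The log2 fold change of -0.16 ± 0.10 (SE) did not pass (edgeR adjusted p = 0.338), and its 95% interval ran from 0.770 to 1.04 times the WT level. It was -0.0243 once trends with exon length and GC were taken out of each library, and -0.24 without WT replicate 1. Tgfbr2 has the longest exons of the 9 receptors, 8187 bases. The gene for its partner chain, Tgfbr1, had a log2 fold change of 0.07 (edgeR adjusted p = 0.668).

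**Figure D3:**
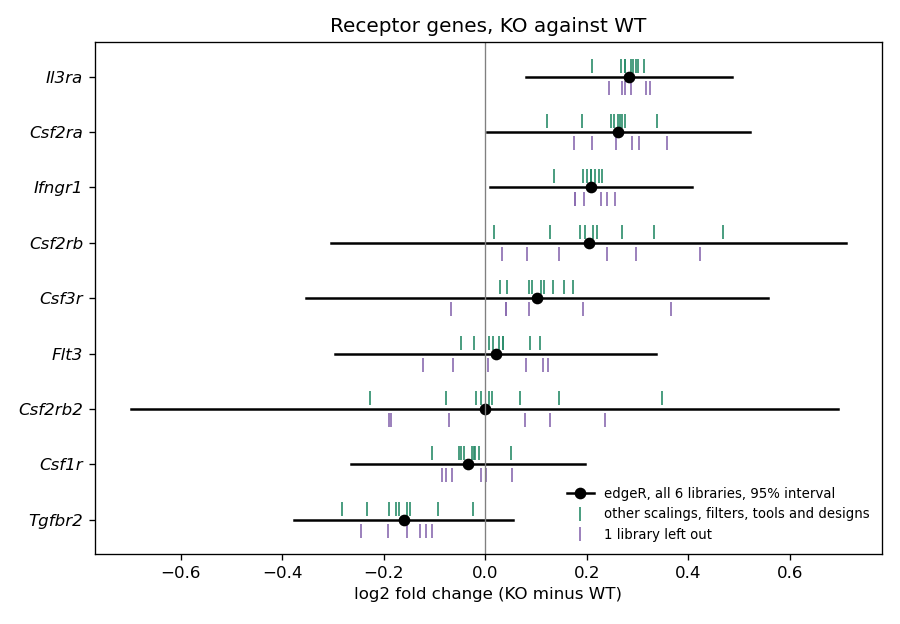
Log2 fold change (KO minus WT, horizontal axis) of each receptor gene in edgeR over 6 libraries, with its 95% interval, and the value under each alternative setting as ticks above (scalings, filters, tools, designs) and below (1 library left out). Il3ra, Csf2ra, Ifngr1 and Csf2rb stayed above 0 and Tgfbr2 below 0 under every setting drawn, and the remaining 4 genes crossed 0 under at least 1.

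Compared per kilobase of annotated exon (RPKM), the receptors were ordered as follows. Csf3r averaged 265.9 ± 29.8 RPKM in KO and 247.7 ± 74.7 RPKM in WT (SD, n = 3 each), followed by Csf2ra with 149.2 ± 9.91 in KO and 124.4 ± 15.8 in WT and by Ifngr1 with 69.5 ± 2.97 in KO and 60.1 ± 3.47 in WT. Csf2rb, at 43.1 ± 12.2 RPKM in KO and 37.4 ± 5.86 in WT, and Csf1r, at 33.8 ± 2.19 in KO and 34.6 ± 3.52 in WT, overlapped, with Csf2rb above Csf1r in 4 of 6 libraries. Csf2rb2 (11.4 ± 3.54 RPKM in KO, 11.4 ± 2.75 in WT) overlapped with Il3ra (9.23 ± 0.344 in KO, 7.59 ± 0.388 in WT), and Il3ra with Tgfbr2 (7.11 ± 0.375 in KO, 7.94 ± 0.836 in WT). Flt3 was lowest, at 4.09 ± 0.701 RPKM in KO and 4.03 ± 0.522 in WT. The other neighbours in the order did not overlap over the 6 libraries. Csf2rb has 7277 bases of annotated exon, but its longest transcript has 4900. Its place beside Ifngr1 and Csf1r may therefore hold only for the exon length used here. The IL-3-binding alpha chain was thus several steps below the GM-CSF-binding one, whose transcript exceeded even the common beta chain.

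Genes with the most similar pattern over the 6 libraries were found by the root-mean-square difference of centred log2(CPM + 0.5), among 11385 genes. Those nearest to Csf3r were Slc2a6, which encodes a sugar transporter, at 0.0328, Hacd4 at 0.0613, Cd300ld, a myeloid surface receptor gene, at 0.0711 and Dync2li1 at 0.0760, where Csf3r itself varied by 0.271 about its mean. Slc2a6 lay at 47.0, 62.3 and 57.7 CPM in KO and 39.8, 67.8 and 46.5 CPM in WT. Only 18 genes lay within 0.1 of Csf3r. Those nearest to Csf1r, which varied by only 0.0993, were Chpf2, Flii, Gripap1 and Itch, at 0.0193 to 0.0289, and 966 genes lay within 0.1 of it.

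Among the ligands, the gene for interferon gamma was lower in KO marrow. Of 11 ligand genes 7 were measured above the filter, of which 1 fell, 0 rose and 6 did not pass in edgeR, with a median log2 fold change of -0.02. Ifng had 16, 10 and 7 counts in KO and 55, 52 and 54 counts in WT, and no KO library reached the WT range. At 0.314 ± 0.147 CPM in KO and 1.38 ± 0.178 CPM in WT (SD, n = 3 each) the log2 fold change was -2.14 ± 0.35 (SE, edgeR adjusted p = 0.0252). The call was lost without KO replicate 4 and without each of the WT libraries in turn. Interferon gamma is made by T and NK cells, whose 8 markers summed to 123.2, 123.5 and 145.9 CPM in KO and 117.5, 110.4 and 97.2 CPM in WT, with 0 of 8 called in edgeR (1 higher before adjustment, and 1 higher by DESeq2 and by limma). The median log2 fold change of the 8 was -0.01, with 4 of 8 positive. Nkg7 took most of the sum, at 85.4 CPM in KO and 62.6 CPM in WT on average. The part of T and NK cell RNA in the level of Ifng was not tested.

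Most colony-stimulating factor genes were barely detected. Csf2, which encodes GM-CSF, had 7 counts over the KO libraries and 7 over the WT libraries, Csf3, which encodes G-CSF, had 1 in KO and 6 in WT, Il5 had 0 in KO and 1 in WT, and Il3 had 0 counts in all 6 libraries, where a count of 0 allows up to 0.0715 to 0.0890 CPM. Csf1, which encodes M-CSF, lay at 25.6 ± 4.09 CPM in KO and 23.8 ± 4.59 CPM in WT (SD, n = 3 each), with a log2 fold change of 0.11 (edgeR adjusted p = 0.712). Tgfb1 had a log2 fold change of 0.10, Flt3l of -0.18 and Il34, an alternative ligand of the M-CSF receptor, of 0.53, and none passed.

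Partner chains and other cytokine receptors gave no call in edgeR over all libraries, and 1 higher call without KO replicate 2. Of 16 measured, 0 passed (3 higher and 1 lower before adjustment), 1 was called lower by DESeq2 and 0 by limma, and the median log2 fold change was 0.03. Il10ra, the ligand-binding chain for IL-10, had -0.39 and was the gene called by DESeq2 (adjusted p = 0.071 in edgeR and 0.0329 in DESeq2). Il10rb had 0.25, and Il6ra, the IL-6-binding chain, 0.28. Kit, the stem cell factor receptor, was at 81.6 ± 6.90 CPM in KO and 93.35 ± 3.17 CPM in WT (SD, n = 3 each), with a log2 fold change of -0.19 (edgeR adjusted p = 0.218).

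Of 26 genes for kinases, adaptors, phosphatases, STATs and SMADs at these receptors, 0 passed in edgeR (4 higher and 2 lower before adjustment), with a median of 0.02. DESeq2 and limma each called 2 higher, where they called 6.0% and 2.92% of all genes higher. Lyn, a Src-family kinase of myeloid cells, lay at 313.1, 319.2 and 349.2 CPM in KO and 244.2, 267.2 and 235.6 CPM in WT. All KO libraries were above all WT libraries, but the log2 fold change of 0.39 did not pass (edgeR adjusted p = 0.0626). Stat5a, a factor activated by GM-CSF and IL-3 receptors, had -0.29 (edgeR adjusted p = 0.0903), and Smad4 0.23.

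A few target genes of the receptors passed. Of 12 STAT5 and STAT3 targets and feedback genes, 1 fell, 0 rose and 11 did not pass in edgeR, while limma gave only the 1 lower call and DESeq2 added 1 higher, Ccnd3 (adjusted p = 0.0343). Osm, which encodes oncostatin M, averaged 92.8 ± 10.3 CPM in KO and 176.2 ± 15.0 CPM in WT (SD, n = 3 each), a log2 fold change of -0.92 (edgeR adjusted p = 0.0103), and was called whichever library was left out. The feedback inhibitor gene Cish had 0.41, Myc 0.28 and the cyclin genes Ccnd3 0.26 and Ccnd2 -0.29, and none of these passed in edgeR. Of 14 interferon gamma targets, 1 rose, 0 fell and 13 did not pass in edgeR, while DESeq2 and limma each gave 2 higher and 1 lower. Cxcl9, a chemokine gene, rose by 1.40 on the log2 scale (edgeR adjusted p = 0.0427), whereas Ciita, the regulator of MHC class II genes, had -1.02 (edgeR adjusted p = 0.0555) and Iigp1, an interferon-induced GTPase gene, 0.69. Ciita passed in DESeq2 (adjusted p = 0.000509) and limma (adjusted p = 0.0476), and without WT replicate 3 in edgeR (adjusted p = 0.0456). Gbp2, another such gene, had 0.57 and Cd274, which encodes PD-L1, -0.47. Of 12 TGF-beta targets, 2 rose, 0 fell and 10 did not pass in edgeR, while DESeq2 and limma each gave 2 higher and 1 lower, the last being Tgif1. The 2 were Id1 and Id2, inhibitors of helix-loop-helix factors, with log2 fold changes of 0.67 and 0.59 (edgeR adjusted p = 0.0474 and 0.0382), while Smad7, the feedback inhibitor of the pathway, had -0.36, Tgif1 -0.45 and Tgfbi 0.38. Cxcl9, Id1 and Id2 each lost their call without KO replicate 4 and without each WT library in turn. The medians of these 3 lists were -0.07, 0.06 and 0.18. Over all genes, in either direction, edgeR called 2.46%, DESeq2 11.4% and limma 6.23%.

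**Figure D4:**
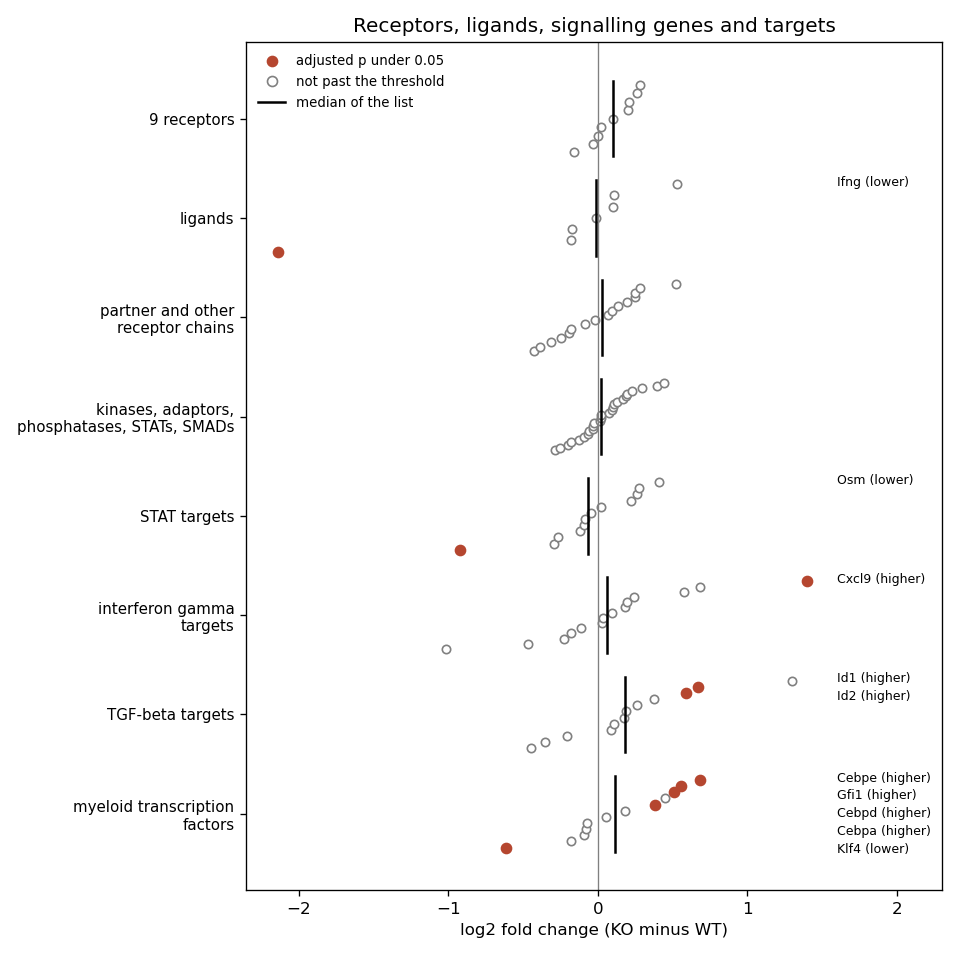
Log2 fold change (KO minus WT, horizontal axis) of each tested gene in the receptor set and in 7 related lists, with filled points for genes past an edgeR adjusted p of 0.05, named at the right, and a bar at each list's median. The 9 receptors lie between -0.16 and 0.28 with none filled, and transcription factors hold 5 of the filled points.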

How the data were processed

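The authors deposited raw counts of reads per gene for 6 poly(A)-selected libraries. The build was GRCm38 and the tools were Trimmomatic 0.36, the aligner STAR 2.5.2b, and featureCounts from the Subread 1.5.2 package, per the submitters' processing notes. Strand setting, annotation release and handling of reads with several matches stay not given in the sources used here. Identifiers were looked up in GENCODE M21 (GRCm38), which gave 48970 of 49315 a symbol and supplied exon lengths, 3' UTRs and overlaps.

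Counts of all genes were tested with edgeR 4.0.16 in R 4.3.3 (TMM, filterByExpr by group, robust quasi-likelihood test, two-sided, Benjamini-Hochberg adjustment over all 16956 genes, threshold 0.05). Alternatives were DESeq2 1.42.0, limma 3.58.1 with sample quality weights, other scalings and filters, the replicate block, an Xist covariate, removal of length and GC trends, and each library left out in turn. The block compared only the libraries of replicates 3 and 4, since KO replicate 2 and WT replicate 1 had no partner with their number. The 4 ratios within libraries were tested by exact permutation (scipy 1.17.1). A floor of 3 counts reflects counting error alone.

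The members and the 20 gene lists were chosen with earlier results of these data known. By a rule set with them, the text names all 9 receptors, list genes past the threshold and up to 4 more per list with the smallest p, of which some are not reported here. Kit, Tgfbr1, Csf2, Csf3, Il3 and Il5 were added for their role, and called marker genes after their values were seen.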

Additional observations from a re-analysis of the deposited data

How the results depend on the processing

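The 9 receptors gave 0 calls under each of the 15 alternatives. Log2 fold changes of Il3ra, Csf2ra, Ifngr1, Csf2rb and Tgfbr2 kept their sign under all of them, but Csf2ra was 0.12 with the replicate block, and Csf2rb was 0.47 with the block and 0.017 with the Xist covariate. Ciita passed with the block (adjusted p = 0.0321), library totals only (0.0467) and no low-count filter (0.000521). Csf1r was 0.0508 after removal of length and GC trends, and with 1 library left out it lay between -0.0855 and 0.0525. Csf2rb2 was 0.0077 with DESeq2 size factors, 0.0141 with DESeq2, 0.15 with limma, 0.35 with the replicate block and 0.0686 after removal of those trends, and between -0.19 and 0.24 with 1 library left out. Flt3 was -0.047 with library totals only and -0.023 with the replicate block, and between -0.12 and 0.12 with 1 library left out. Csf3r lay between -0.0671 and 0.37 with 1 library left out. Runx1 was 0.10 after removal of the trends. The cause of these shifts was not tested.

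Over all genes, 417 were called, but 1492 without a low-count filter, 1577 in DESeq2, 1057 in limma, 209 with the Xist covariate and between 32 and 920 with 1 library left out. Higher genes made up 38.1% of calls, 17.8% with library totals only (87 higher, 403 lower), 49.8% after removal of the trends (155 and 156) and 52.9% with DESeq2 (834 and 743). Transcription factors called higher numbered 4, but 2 with library totals only, 1 with the replicate block, 2 with the Xist covariate and between 0 and 4 with 1 library left out, and those called lower between 0 and 1.

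Csf1r against monocyte markers was -0.02265 with the replicate block and between -0.0195 and 0.0682 with 1 library left out. Replicate numbers were shared by 2 pairs, whose deviations correlated at 0.194 and -0.122. These 2 values cannot show whether libraries that share a number were handled together. The block gave 571 calls over all genes, but its differences rest on the pairs of replicates 3 and 4. KO replicate 2 and WT replicate 1 add nothing to them.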

Other observations

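Of 10 tissue macrophage markers, 1 fell in edgeR, 0 rose and 9 did not pass. It was Siglec1, a sialic acid receptor of marrow macrophages, with a log2 fold change of -1.05 (edgeR adjusted p = 0.0103). The list median was -0.05, and the summed level was 367.4, 320.4 and 404.8 CPM in KO and 350.9, 319.3 and 353.8 CPM in WT. Erythroid markers summed to 20780, 11780 and 13950 CPM in KO and 27870, 12170 and 20700 CPM in WT, with 0 of 8 called in edgeR (3 lower before adjustment, 2 lower by DESeq2 and 1 by limma). Their median log2 fold change was -0.37, with 0 of 8 positive. B lineage markers had 0 of 10 called in edgeR over all libraries (1 lower before adjustment, 1 lower by DESeq2 and 0 by limma). The median log2 fold change of these markers was -0.71, with 0 of 10 positive. The number called lower was 8 without KO replicate 2, the KO library with the highest summed level of these markers. It was 1 without WT replicate 3 and 0 when any other library was left out. Skeletal muscle markers summed to at most 18.45 CPM in any library, with Tnnt3 lower in edgeR, a call lost whichever library was left out. The 3 adipocyte markers tested, Adipoq, Fabp4 and Cfd, did not pass.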
